A study of Mus musculus with 6 samples.

Results

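The genes described here are serum response factor (Srf) and 9 genes of the actin cytoskeleton, Acta2, Actb, Actg1, Vcl, Tagln, Tpm1, Tpm4, Myl9 and Flna. They were chosen by gene symbol, and all 10 were found among the 56691 genes of the deposited table. RNA was sequenced from 4T1, a mouse mammary carcinoma cell line, after 4 h with KIRA6 at 1 µmol/L (3 libraries) or after 4 h with vehicle (3 libraries), in both groups following a night of plating in complete medium. KIRA6 docks in the kinase pocket of IRE1α, the membrane protein through which the endoplasmic reticulum signals unfolded proteins, and lowers its RNase output. The labels give neither the composition of the vehicle nor the origin of the libraries in separate cultures, so each p-value measures only how these samples spread, which may be technical.

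SRF is a transcription factor that binds an A/T-rich element, the CArG box, and works with either of a pair of cofactor families. Myocardin-related transcription factors (MRTF) are held back by monomeric actin and enter the nucleus when actin polymerises, where they drive genes for actin, its binding proteins and the contractile apparatus. Ternary complex factors (TCF) of the ETS family are phosphorylated by ERK and drive immediate-early genes, and Srf is itself among the targets of SRF. Smooth muscle, myofibroblasts and myoepithelial cells express Acta2, Tagln and Myl9 strongly, while Actb and Actg1 are the cytoplasmic actins of nearly every cell.

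Promoter sequences are shown because the CArG box is what ties these genes to SRF. The RefSeq table on GRCm38.p6, 250 bases before to 50 after each start, held 8 of the 10 genes and not Actb or Tagln. A CArG box was found in 4 of these 8 promoters, against 1.63% of the 32851 promoters of that length in the table. The element is its own reverse complement, so both strands were covered, and no other motif was searched. In the 4 stretches that follow, 5′ to 3′ on the gene's strand, the box is in capitals. The promoter of Srf held a pair of boxes, starting 82 and 62 bases before the start of transcription. Those of Actg1, Myl9 and Vcl held 1 each, starting 90, 161 and 227 bases before it. The promoters of Acta2, Tpm1, Tpm4 and Flna held no match in this window, which says only that these letters are not in it.
Srf, chr17:46556195-46556264, minus strand: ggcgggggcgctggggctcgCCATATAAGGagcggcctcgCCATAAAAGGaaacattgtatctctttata
Actg1, chr11:120348556-120348605, minus strand: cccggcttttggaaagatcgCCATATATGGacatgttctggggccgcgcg
Myl9, chr2:156775283-156775332, plus strand: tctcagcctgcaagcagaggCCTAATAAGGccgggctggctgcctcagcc
Vcl, chr14:20929151-20929200, plus strand: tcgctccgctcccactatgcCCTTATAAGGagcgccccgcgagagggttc

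Values are FPKM, the fragments of a gene scaled to the length of its exons and to the total of the library, so levels can be set side by side between genes. Values rest on an estimated 18214000 to 21353000 fragments a library with KIRA6 and 16500000 to 18581000 with vehicle. KIRA6 replicate 1 and Vehicle replicate 3 stood apart inside their groups: 1 axis, on which they scored −38.8 and 48.9, carried 81.3% of the within-group variance over the 11778 tested genes. For each of the 8 tested members the fold change is therefore also given without that pair of libraries, a fit that had smaller spread by construction. For genes lowest in KIRA6 replicate 1 and highest in Vehicle replicate 3 of each group, it had to raise the fold change. These included Srf, Actb, Actg1, Vcl and Flna, and for Tpm4 the reverse held. This fit called 56.1% of all tested genes, 35.9% higher and 20.2% lower. A gene was called when its adjusted p was below 0.05 in limma on log2(FPKM + 0.5), and such fold changes understate the change of low genes. Over all tested genes the median log2 fold change was 0.16, and scaling the libraries by the median of their gene ratios moved it to −0.041.

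Of the 10 genes, 8 passed the filter of a mean of 0.5 FPKM, and Acta2 and Tagln did not. Myl9 and Tpm1 rose with KIRA6 and Actb fell, while Srf, Actg1, Tpm4, Vcl and Flna were not called, and the median of the 8 was −0.29. Among all tested genes, 23.6% were called, 15.6% higher and 7.98% lower, and nothing particular to the 10 genes is read from their count of 3 in 8. By mean FPKM over the 6 libraries, Actg1 and Actb ranked 24 and 25 among all 56691 genes. Tpm4, Flna and Tpm1 averaged 235, 181 and 147 FPKM, Srf and Vcl 23.6 and 16.1 FPKM, and Myl9, Acta2 and Tagln 1.69, 0.358 and 0.293 FPKM. The genes thus stood in 4 tiers whose ranges over the libraries did not overlap, namely the cytoplasmic actins, then Tpm4, Flna and Tpm1, then Srf and Vcl, and last Myl9, Acta2 and Tagln. Inside each tier neighbours overlapped and are not ordered.

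**Figure D1:**
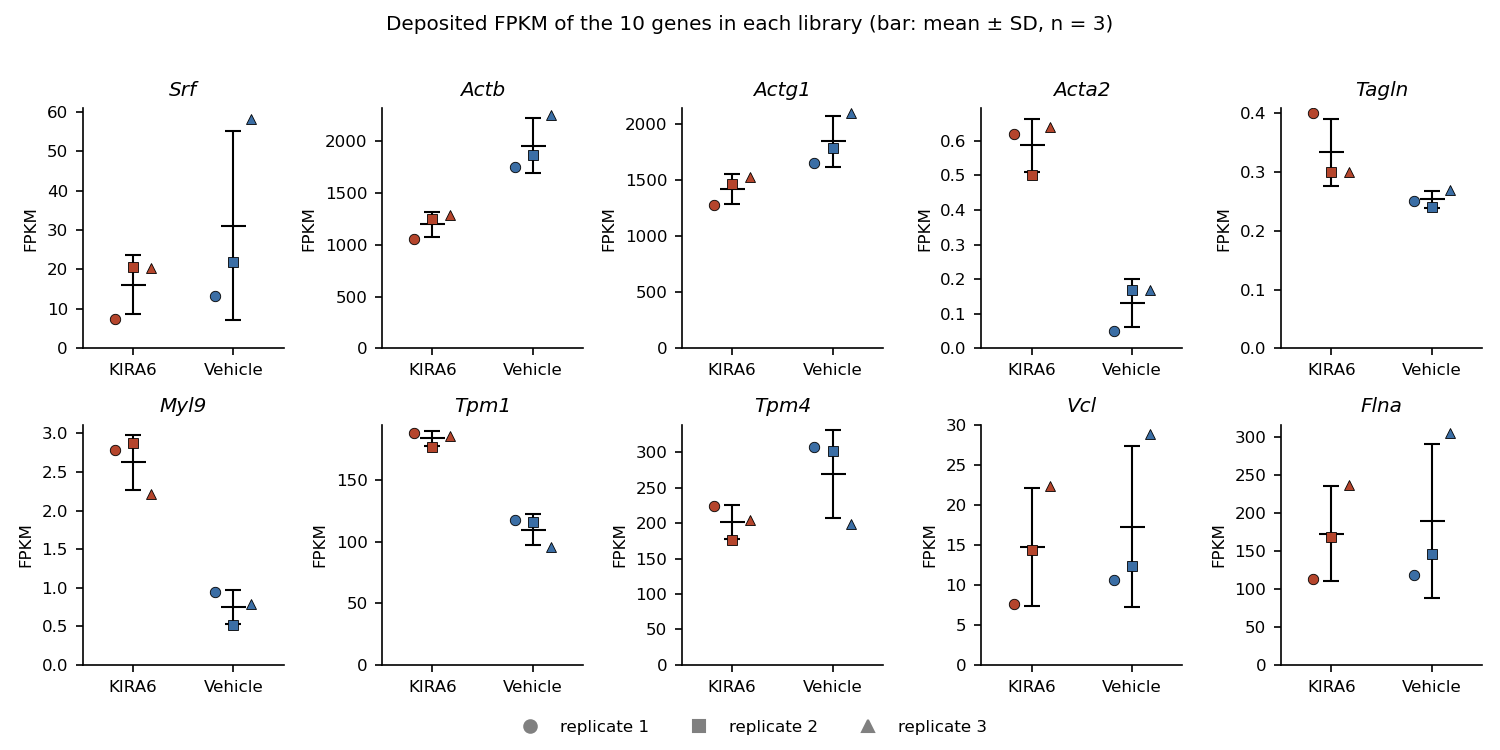
FPKM (vertical axes, linear and starting at 0) of the 10 genes in the 3 KIRA6 libraries (left in each panel, red) and the 3 Vehicle libraries (right, blue), with symbols for the replicate number and bars for the mean ± SD. Actb and Actg1 lie lower and Acta2, Tagln, Myl9 and Tpm1 higher in every KIRA6 library, whereas Srf, Tpm4, Vcl and Flna overlap between the groups. Among all tested genes KIRA6 lay lower without overlap for 14.1% and higher for 27.7%.

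Srf (ENSMUSG00000015605, chromosome 17, 46859255 to 46867101 on GRCm39, minus strand) encodes the DNA-binding factor at the head of the pathway. It had 7.56, 20.57 and 20.32 FPKM in KIRA6 replicates 1 to 3, against 13.16, 21.81 and 58.24 FPKM in Vehicle replicates 1 to 3. The groups overlapped. The lowest value was that of KIRA6 replicate 1, and the highest, that of Vehicle replicate 3, was far above all others. The log2 fold change was −0.78 ± 0.61 (SE, adjusted p = 0.4001), and its 95% interval, −2.23 to 0.67, spans a large decrease and a moderate increase. Without KIRA6 replicate 1 and Vehicle replicate 3 it was 0.26 ± 0.21 (adjusted p = 0.318), and without Vehicle replicate 3 alone it was −0.20. With each library corrected for GC content and gene length, a step chosen after seeing the data, it was −1.24 ± 0.22 and called lower (adjusted p = 0.007775), in a fit that called 14.7% of genes lower. The Srf transcript has 64.4% GC, and the upper 25% of tested genes by GC content begin at 54.38%.

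Of the tested genes outside the gene lists, those with a profile most like that of Srf over the 6 libraries were Slc25a22, which encodes a mitochondrial glutamate carrier, Dot1l, a histone H3 methyltransferase, and Adamts14, a secreted metalloproteinase. Likeness was the root mean square distance of log2(FPKM + 0.5) centred on the vehicle mean, and it was 0.13, 0.16 and 0.16 for the 3 genes. Slc25a22 had 0.89, 2.83 and 2.90 FPKM with KIRA6, against 2.24, 3.02 and 9.51 FPKM with vehicle. Since it was chosen by likeness, it had to share with Srf a low KIRA6 replicate 1 and a high Vehicle replicate 3. It was not called (log2 fold change −0.87, adjusted p = 0.313).

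The cytoplasmic actins were the most abundant of the 10 transcripts. Actb (ENSMUSG00000029580, chromosome 5, 142888870 to 142892509, minus strand) encodes β-actin and had 1056.31, 1249.08 and 1289.61 FPKM in KIRA6 replicates 1 to 3, against 1755.84, 1866.57 and 2258.16 FPKM in Vehicle replicates 1 to 3. Every KIRA6 library lay below every Vehicle library. Actb fell (log2 fold change −0.71 ± 0.16, SE, adjusted p = 0.02419), and the value was −0.51 ± 0.13 without KIRA6 replicate 1 and Vehicle replicate 3 (adjusted p = 0.01101). The direction held in all 21 alternatives, from −0.93 to −0.51. The call ended without KIRA6 replicate 1 (adjusted p = 0.06115), KIRA6 replicate 2 (0.08611), KIRA6 replicate 3 (0.05074), Vehicle replicate 1 (0.05404) or Vehicle replicate 2 (0.0882). In bulk RNA fewer cells of a type and less RNA per cell cannot be told apart, and FPKM shows shares of a library, not amounts per cell.

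Actg1 (ENSMUSG00000062825, chromosome 11, 120236516 to 120239368, minus strand) encodes γ-actin of the cytoplasm. It had 1275.69, 1467.30 and 1532.02 FPKM with KIRA6, against 1655.10, 1789.51 and 2099.69 FPKM with vehicle. These groups did not overlap either, yet the log2 fold change of −0.37 ± 0.16 missed the threshold (SE, 95% interval −0.75 to 0.01, adjusted p = 0.1382). Without KIRA6 replicate 1 and Vehicle replicate 3 it was −0.20 ± 0.13 (adjusted p = 0.2319). Of the 21 alternatives 3 called it lower, among them median-ratio scaling (−0.60, adjusted p = 0.03949, with 13.2% of all tested genes called lower) and array weights (−0.27, adjusted p = 0.0269, with 23.9% called lower). Among all tested genes the groups did not overlap for 41.8%, with KIRA6 lower for 14.1% and higher for 27.7%.

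The order of the cytoplasmic actins differed between the groups. Actb made up 45.3%, 45.9% and 45.7% of the FPKM summed over 7 actin genes in KIRA6 replicates 1 to 3, against 51.5%, 51.0% and 51.8% in Vehicle replicates 1 to 3. Actg1 was therefore ahead of Actb in each KIRA6 library, and Actb ahead of Actg1 in each Vehicle library. The log2 ratio of Actb to Actg1 was −0.25 ± 0.02 with KIRA6 and 0.08 ± 0.02 with vehicle (SD, n = 3 each), a difference of −0.33. It ranged from −0.35 to −0.31 when single libraries or KIRA6 replicate 1 and Vehicle replicate 3 together were left out. This ratio does not depend on the scaling between libraries. A two-sided exact permutation test of 3 against 3 libraries gave p = 0.1, the smallest it can give, and 0.113 after adjustment over 9 ratios, so the design cannot take it below 0.05. Over the other ratios p was also 0.1, except for Flna to Vcl.

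The 7 actin genes together held 0.622%, 0.725% and 0.753% of all fragments in KIRA6 replicates 1 to 3, against 0.910%, 0.976% and 1.16% in Vehicle replicates 1 to 3. Nearly all of this was Actb and Actg1. Their coding sequences are almost alike and each has processed pseudogenes, so reads may have been shared. Of the named pseudogenes, Actb-ps1 was listed at 0 in all 6 libraries and Actg-ps1 ranged from 0.00 to 0.43 FPKM.

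**Figure D2:**
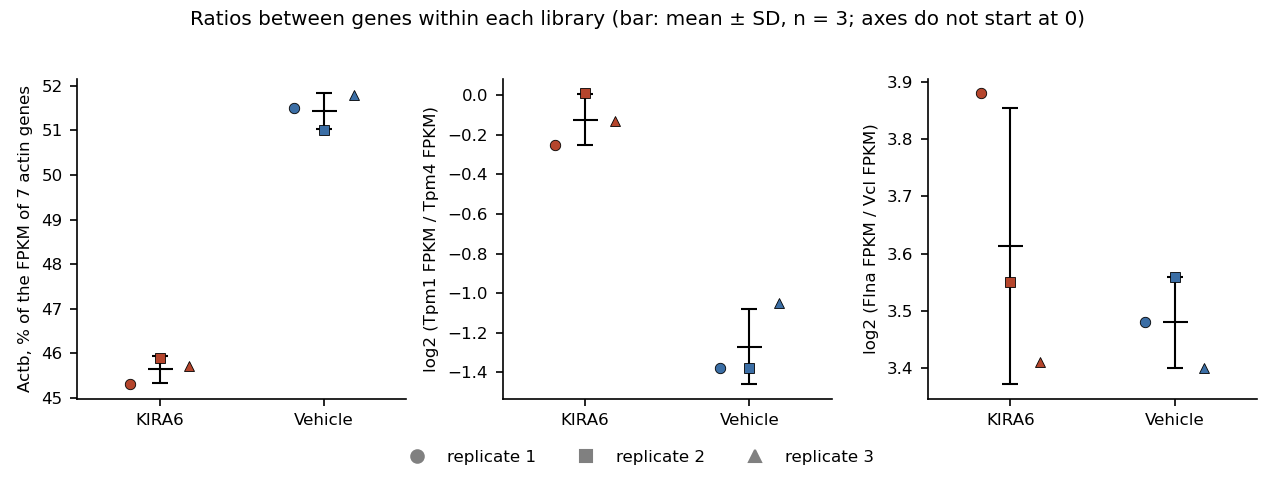
Ratios within each library, with KIRA6 left and Vehicle right, symbols for the replicate number and bars for the mean ± SD of 3 libraries; the axes do not start at 0. Actb as a percent of the FPKM of 7 actin genes (left panel) sits at 45.3 to 45.9 with KIRA6 and 51.0 to 51.8 with vehicle, the log2 ratio of Tpm1 to Tpm4 (middle) does not overlap between the groups, and that of Flna to Vcl (right) does.

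Acta2 (ENSMUSG00000035783, chromosome 19, 34218490 to 34232990, minus strand) encodes the α-actin of smooth muscle and myofibroblasts. It was close to the detection limit, with 0.62, 0.50 and 0.64 FPKM in KIRA6 replicates 1 to 3, against 0.05, 0.17 and 0.17 FPKM in Vehicle replicates 1 to 3. These correspond to an estimated 29, 20 and 28 fragments with KIRA6 and 2, 6 and 7 fragments with vehicle, where a count of 0 allows up to 3. The groups did not overlap, and summed over the libraries the level was 4.60 times as high with KIRA6, with an exact 95% interval of 2.63 to 8.62 that covers counting error only. Under a filter of 0.1 FPKM Acta2 was tested and called higher (log2 fold change 0.79 ± 0.14, adjusted p = 0.01257), where 13.8% of genes were. Its mean was 0.587 FPKM with KIRA6 and 0.13 FPKM with vehicle, the latter only just above that filter. Genes above 0 numbered 17801 to 18060 with KIRA6 and 16474 to 16843 with vehicle, and the part of this difference in the value of Acta2 was not tested.

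Among the other muscle actins, Acta1 and Actg2 were higher in every KIRA6 library, as were 27.7% of all tested genes. Acta1, the skeletal muscle isoform, had 0.91, 1.50 and 1.21 FPKM with KIRA6, against 0.39, 0.16 and 0.35 FPKM with vehicle (log2 fold change 1.09 ± 0.20, adjusted p = 0.01159). It reached the filter only through its KIRA6 libraries, so it had to differ, and the call ended without KIRA6 replicate 2 (adjusted p = 0.0525). Actg2, an enteric smooth muscle isoform, was not tested and had 0.30, 0.18 and 0.16 FPKM with KIRA6, against 0.00, 0.08 and 0.00 FPKM with vehicle. Actc1, the cardiac isoform, was listed at 0 in all 6 libraries. Summed over Acta1, Acta2, Actc1 and Actg2, the level was 1.83, 2.18 and 2.01 FPKM with KIRA6, against 0.440, 0.410 and 0.520 FPKM with vehicle. The muscle isoforms are near-identical in coding sequence, so their separate values are uncertain.

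Tagln (ENSMUSG00000032085, chromosome 9, 45840917 to 45847356, minus strand) encodes transgelin, an actin-binding protein of smooth muscle. It had 0.40, 0.30 and 0.30 FPKM with KIRA6, against 0.25, 0.24 and 0.27 FPKM with vehicle. The groups did not overlap, but these values rest on 17, 11 and 12 fragments with KIRA6 and 9, 8 and 10 fragments with vehicle. The summed level was 1.33 times as high with KIRA6, and its exact 95% interval of 0.795 to 2.25 includes no difference. Tested under the 0.1 FPKM filter, Tagln was not called (log2 fold change 0.14, 95% interval −0.15 to 0.44, adjusted p = 0.4583). Its relative Tagln2, expressed in many cell types, was at 264.58, 391.94 and 352.49 FPKM with KIRA6, against 239.25, 245.94 and 375.49 FPKM with vehicle, and was not called (adjusted p = 0.5131), but was called higher without KIRA6 replicate 1 and Vehicle replicate 3 (0.61, adjusted p = 0.002836).

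Myl9 (ENSMUSG00000067818, chromosome 2, 156617340 to 156623578, plus strand) encodes a regulatory light chain of non-muscle and smooth muscle myosin, the subunit that myosin light chain kinase and ROCK phosphorylate. It had 2.78, 2.88 and 2.21 FPKM in KIRA6 replicates 1 to 3, against 0.95, 0.52 and 0.79 FPKM in Vehicle replicates 1 to 3. No KIRA6 library was within the range of the Vehicle libraries, and 27.7% of all tested genes were likewise higher with KIRA6 without overlap. Myl9 rose (log2 fold change 1.33 ± 0.19, SE, adjusted p = 0.00448), and the value was 1.32 ± 0.22 without KIRA6 replicate 1 and Vehicle replicate 3. It was called in each of the 20 alternatives in which it was tested, from 0.98 to 1.79. Relative to Actb in the same library, Myl9 stood 2.54 higher with KIRA6 on the log2 scale. The related light chains were far more abundant. Myl12b rose (37.19, 34.03 and 29.50 FPKM with KIRA6, against 21.48, 20.55 and 19.78 FPKM with vehicle, log2 fold change 0.69 ± 0.14, adjusted p = 0.01397), a call that ended with median-ratio scaling and without KIRA6 replicate 2 or Vehicle replicate 2 (adjusted p up to 0.0695). Myl12a had 65.12, 69.93 and 60.34 FPKM with KIRA6, against 70.71, 69.47 and 73.65 FPKM with vehicle (adjusted p = 0.491).

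Tropomyosins are coiled-coil proteins that lie along actin filaments and set which other proteins can bind them. Tpm1 (ENSMUSG00000032366, chromosome 9, 66929872 to 66956688, minus strand) had 188.60, 177.14 and 186.18 FPKM in KIRA6 replicates 1 to 3, against 117.64, 116.38 and 95.61 FPKM in Vehicle replicates 1 to 3. All KIRA6 libraries were above all Vehicle libraries, as for 27.7% of all tested genes, and the KIRA6 values lay close together. Tpm1 rose (log2 fold change 0.75 ± 0.14, SE, adjusted p = 0.01177), and the value was 0.63 ± 0.10 without KIRA6 replicate 1 and Vehicle replicate 3 (adjusted p = 0.001467). Its call ended in 1 of 21 alternatives, that without KIRA6 replicate 2 (adjusted p = 0.05346), and the fold change ran from 0.52 to 0.85.

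Tpm4 (ENSMUSG00000031799, chromosome 8, 72884018 to 72906986, plus strand) is the other tropomyosin gene in the set. It had 223.66, 176.08 and 204.00 FPKM with KIRA6, against 306.91, 302.24 and 198.15 FPKM with vehicle. Only Vehicle replicate 3 lay within the KIRA6 range. The log2 fold change was −0.40 ± 0.21 (SE, 95% interval −0.90 to 0.11, adjusted p = 0.2256). Of the 21 alternatives 4 called it lower. These were array weights (−0.71 ± 0.10, adjusted p = 0.00055), the fit without Vehicle replicate 3 (−0.60 ± 0.16, adjusted p = 0.03193, with 11.3% of tested genes called lower), the fit without KIRA6 replicate 1 and Vehicle replicate 3 together (−0.68 ± 0.12, adjusted p = 0.00197), and the GC and length correction (−0.50 ± 0.15, adjusted p = 0.04751). Array weights called 23.9% of tested genes lower, the fit without that pair 20.2%, and the GC and length correction 14.7%. Within libraries, the log2 ratio of Tpm1 to Tpm4 was −0.25, 0.01 and −0.13 with KIRA6, against −1.38, −1.38 and −1.05 with vehicle. The difference of 1.15 ran from 1.08 to 1.32 over the libraries left out, and the exact permutation p was 0.1, the smallest the design allows.

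The remaining tropomyosin genes differed in level. Tpm2, which is strong in muscle, was near 0 with vehicle and was called higher (0.89, 0.75 and 1.16 FPKM with KIRA6, against 0.06, 0.08 and 0.18 FPKM with vehicle, log2 fold change 1.24 ± 0.18, adjusted p = 0.004645). It reached the filter only through its KIRA6 libraries, so it had to differ. Tpm3 had 28.62, 47.09 and 48.37 FPKM with KIRA6, against 37.57, 37.58 and 69.32 FPKM with vehicle, and was not called (adjusted p = 0.7033), although called higher without KIRA6 replicate 1 and Vehicle replicate 3 (0.34, adjusted p = 0.02049). Its values are uncertain, since the related sequence Tpm3-rs7, named after its values were seen, was listed at 149.71 to 363.12 FPKM. Of 14 tested genes of tropomyosins, myosins and their regulators, 13 reached the filter in both groups. Of these 13, Myl9, Tpm1 and Myl12b rose, and limma called 0 lower, also at an unadjusted p under 0.05, with a median of 0.10. Over all 14 the median was 0.27, and 0.06 with median-ratio scaling. The median over all tested genes was 0.16, and −0.041 with that scaling. Without it 15.6% of them were called higher and 7.98% lower. Leaving out KIRA6 replicate 2 gave 2 higher calls over the 14, and leaving out KIRA6 replicate 1 and Vehicle replicate 3 together gave 10 higher and 1 lower. The former fit called 6.94% of all tested genes higher, and the latter 35.9% higher and 20.2% lower.

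Vcl (ENSMUSG00000021823, chromosome 14, 20979466 to 21083744, plus strand) encodes vinculin, which links actin to talin at focal adhesions and to catenins at cell junctions. It had 7.66, 14.36 and 22.38 FPKM in KIRA6 replicates 1 to 3, against 10.59, 12.40 and 28.94 FPKM in Vehicle replicates 1 to 3. The groups overlapped, and both were widely spread. The log2 fold change was −0.20 ± 0.49 (SE, 95% interval −1.37 to 0.97, adjusted p = 0.8069). Its sign turned without KIRA6 replicate 1 (0.19) and without Vehicle replicate 3 (0.23), and without both of them it was 0.62 ± 0.20 and called higher (adjusted p = 0.02932).

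Flna (ENSMUSG00000031328, chromosome X, 73267067 to 73293426, minus strand) encodes filamin A, which crosslinks actin filaments into networks and anchors them to membrane proteins. It had 112.76, 168.48 and 237.38 FPKM with KIRA6, against 118.22, 145.75 and 305.49 FPKM with vehicle. As for Vcl, the lowest of all was KIRA6 replicate 1 and the highest Vehicle replicate 3. The log2 fold change was −0.07 ± 0.42 (SE, 95% interval −1.07 to 0.92, adjusted p = 0.9231). Leaving out KIRA6 replicate 1 gave 0.20, leaving out Vehicle replicate 3 gave 0.33, and quantile normalization gave 0.02. Without both libraries it was 0.61 ± 0.18 and called higher (adjusted p = 0.02088). That fit had to raise the value, since it left out the lowest KIRA6 and the highest Vehicle library. In that fit 56.1% of all tested genes were called, 35.9% of them higher and 20.2% lower as shares of all tested, so the calls of Vcl and Flna stand beside a wide background. The log2 ratio of Flna to Vcl was 3.61 ± 0.24 with KIRA6 and 3.48 ± 0.08 with vehicle (SD, n = 3 each), and the groups overlapped (exact permutation p = 0.5).

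**Figure D3:**
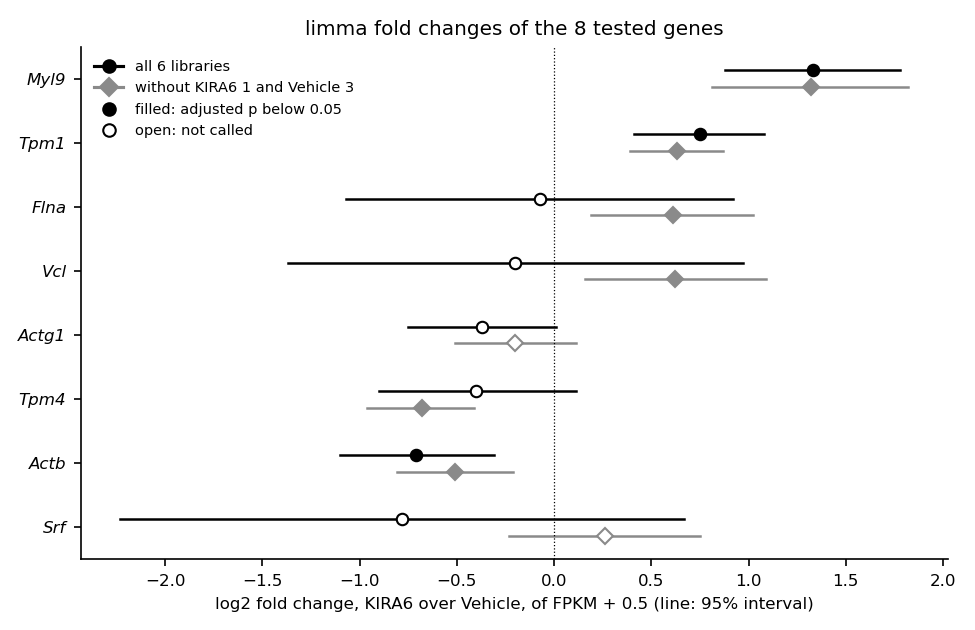
log2 fold changes of KIRA6 over Vehicle on the FPKM + 0.5 scale (horizontal axis) for the 8 tested genes, with 95% intervals from limma; circles use all 6 libraries, diamonds leave out KIRA6 replicate 1 and Vehicle replicate 3, and filled symbols were called. Myl9, Tpm1 and Actb keep their direction and call in both, while Srf, Vcl and Flna have wide intervals with all libraries and change sign. Leaving out that pair had to raise the values of Srf, Vcl and Flna.

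For Srf, Vcl and Flna the libraries of a group lay further apart than the group means. On the log2(FPKM + 0.5) scale, Vehicle replicate 3 stood 1.75, 1.30 and 1.22 above the mean of the other Vehicle libraries for Srf, Vcl and Flna. KIRA6 replicate 1 stood at −1.38, −1.18 and −0.82 from the mean of the other KIRA6 libraries. The median absolute values over all tested genes were 0.39 for Vehicle replicate 3 and 0.30 for KIRA6 replicate 1. Actb and Actg1 leaned the same way by less (0.32 and 0.29 in Vehicle replicate 3, −0.26 and −0.23 in KIRA6 replicate 1), Tpm4 leaned the other way (−0.62 and 0.24), and Myl9 stayed near 0 in both (0.09 and 0.12). Genes more than 1 above in Vehicle replicate 3 and more than 1 below in KIRA6 replicate 1 made up 5.64% of all tested genes, 2 of the 8 members and 12 of 94 other tested genes of the pathway lists, among them Zyx, Tln1 and Myh9 (named after their values were seen).

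Gene length moved with this spread in both libraries and GC content mainly in Vehicle replicate 3, and the cause of the spread was not tested. Among the 25% of tested genes with the longest exons the median was 0.17 in Vehicle replicate 3 and −0.25 in KIRA6 replicate 1, and among the shortest 25% it was −0.26 and 0.20. Among the 25% with the highest GC content it was 0.30 and −0.16, and among the lowest 25% it was −0.29 and −0.06. Vcl and Flna have 8191 and 9457 exonic bases, and Srf has 2893. After correction for GC content and length the SE of Srf was 0.22 in place of 0.61, that of Flna 0.21 in place of 0.42 and that of Vcl 0.38 in place of 0.49. The log2 fold changes of Vcl and Flna were then −0.30 and −0.25, not called.

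**Figure D4:**
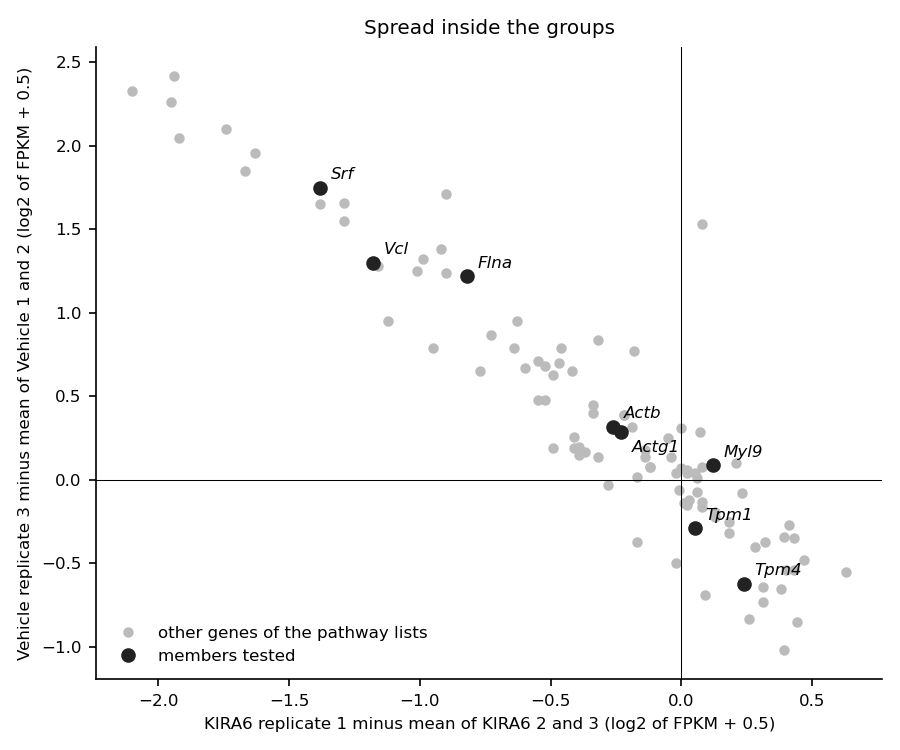
Position of Vehicle replicate 3 against the other Vehicle libraries (vertical axis) and of KIRA6 replicate 1 against the other KIRA6 libraries (horizontal axis), both as differences in log2(FPKM + 0.5), for the 8 tested members (black, named) and the other tested genes of the pathway lists (grey). Srf, Vcl and Flna lie far to the upper left, with 1.75, 1.30 and 1.22 on the vertical axis, while Myl9, Tpm1, Actb and Actg1 lie near the origin.

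The wider pathway was described with 8 lists by role. They held 94 tested genes outside the 10, of which 7 (7.45%) were called higher and 10 (10.6%) lower, with all tested genes at 15.6% and 7.98%. Acta1, Tpm2, Fosb and Egr1 reached the filter through 1 group only, and without them 90 genes held 5 higher and 9 lower calls. Among SRF and its cofactors 1 of 7 tested genes, Fhl2, was called. Fhl2, a LIM protein that binds SRF, fell, with 18.94, 13.98 and 13.01 FPKM with KIRA6, against 41.67, 40.58 and 29.42 FPKM with vehicle (log2 fold change −1.26 ± 0.21, adjusted p = 0.00744), and stayed called with each library left out. The MRTF genes were low and spread like Srf. Mrtfa had 1.68, 6.48 and 6.41 FPKM with KIRA6, against 1.66, 2.07 and 8.01 FPKM with vehicle (adjusted p = 0.7195). Mrtfb had 2.15, 3.61 and 5.63 FPKM with KIRA6, against 1.50, 1.60 and 4.83 FPKM with vehicle (adjusted p = 0.4618). Without KIRA6 replicate 1 and Vehicle replicate 3, Mrtfa and Mrtfb were called higher (log2 fold changes 1.56 and 1.29, adjusted p = 0.000123 and 0.001262). That fit had to raise both values, and it called 35.9% of all tested genes higher.

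The TCF genes were not called. Elk1 had 6.82, 6.77 and 6.13 FPKM with KIRA6, against 5.22, 5.44 and 5.67 FPKM with vehicle, without overlap (adjusted p = 0.2055). KIRA6 lay higher without overlap for 27.7% of all tested genes. Elk3 had 30.12, 41.29 and 53.47 FPKM with KIRA6, against 33.36, 32.93 and 64.64 FPKM with vehicle (adjusted p = 0.9587), and Elk4 had 5.05, 5.54 and 8.54 FPKM with KIRA6, against 5.62, 5.47 and 6.39 FPKM with vehicle (adjusted p = 0.8013). Elk3 was called higher without KIRA6 replicate 1 and Vehicle replicate 3 (0.50, adjusted p = 0.01556), as were 35.9% of all tested genes. With all 6 libraries, 7.98% of all tested genes were called lower and 15.6% higher, with a median of 0.16. Of 7 tested targets of the TCF arm 4 were called lower and 1 higher, with a median log2 fold change of −1.11. Fosb and Egr1 reached the filter only through their Vehicle libraries, and over the other 5 genes the count was 3 lower and 1 higher, with a median of −0.71. The list median depended on the filter, at −0.52 over 10 genes with a filter of 0.1 FPKM, −0.32 over 11 genes with 3 called lower without one, and −0.71 over 3 genes with a filter of 2 FPKM. The immediate-early gene Ier2 fell, with 9.53, 8.10 and 8.20 FPKM with KIRA6, against 29.66, 33.17 and 33.65 FPKM with vehicle (log2 fold change −1.84 ± 0.13, adjusted p = 0.0006687). Mcl1, an anti-apoptotic protein, and the nuclear receptor Nr4a1 also fell (log2 fold changes −0.71 and −1.11), the AP-1 subunit Fosb was called lower (−1.26), and Junb, of the AP-1 family, rose (0.82, adjusted p = 0.00733). With single libraries left out, Nr4a1 stayed called in 2 of 6 fits (adjusted p up to 0.112), and it was not called without a filter. Mcl1 and Fosb each stayed called in 4 (adjusted p up to 0.0789 and 0.0643). Leaving out KIRA6 replicate 1, 2 or 3 gave 3, 1 and 2 lower calls of 7 in that order, leaving out Vehicle replicate 2 gave 2, and leaving out Vehicle replicate 1 or 3 gave 5. Of all tested genes, those fits called 6.52%, 3.35%, 4.38%, 3.45%, 4.42% and 11.3% lower, in the order given. Egr1, named after its values were seen, had 0.05, 0.01 and 0.03 FPKM with KIRA6, against 0.38, 0.54 and 2.26 FPKM with vehicle, and missed the threshold (adjusted p = 0.05847). It was called lower with 2 of the 6 single libraries left out, and without KIRA6 replicate 1 and Vehicle replicate 3 together (−0.88, adjusted p = 0.01118). The call for Junb ended with the GC and length correction. Dusp1 was tested and not called (log2 fold change 0.06, adjusted p = 0.8285). Fos, below the filter, leaned the other way, with 0.28, 0.40 and 0.17 FPKM with KIRA6, against 0.12, 0.21 and 0.11 FPKM with vehicle, and the groups overlapped.

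With all 6 libraries, 15.6% of all tested genes were called higher and 7.98% lower, with a median of 0.16. Of 17 tested targets of the MRTF arm, with a median of 0.07, limma called 2 higher and 0 lower, the 0 also at an unadjusted p under 0.05. Tpm2 was 1 of the 2, and over the other 16 genes, which reached the filter in both groups, 1 rose, with a median of 0.01. This was Filip1l, a filamin-interacting protein, which had 6.87, 12.65 and 14.86 FPKM with KIRA6, against 2.54, 2.57 and 4.77 FPKM with vehicle (log2 fold change 1.64 ± 0.34, adjusted p = 0.01674). Leaving out KIRA6 replicate 2 or 3, or Vehicle replicate 1 or 2, ended the call for Filip1l (adjusted p up to 0.0765) and left 1 gene called. Those fits called 6.94% to 9.35% of all tested genes higher. Without KIRA6 replicate 1 and Vehicle replicate 3 together, the median of this list was 0.59, with 11 genes called higher. In that fit the median over all tested genes was 0.18, and 35.9% of them were called higher. With median-ratio scaling the median of the list was −0.15. Of 19 genes of this list with a RefSeq promoter, 4 held a CArG box, namely Cnn2, Fhl1, Filip1l and Lima1, and not Tpm2. Cnn2 and Lima1 were not called and Fhl1 was not tested. Among targets of the TCF arm the count was 1 of 9, Egr2, which was not tested. It was 3 of 5 for actin isoforms, among them Acta1, and 2 of 8 for SRF and its cofactors, Fhl2 and Srf.

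**Figure D5:**
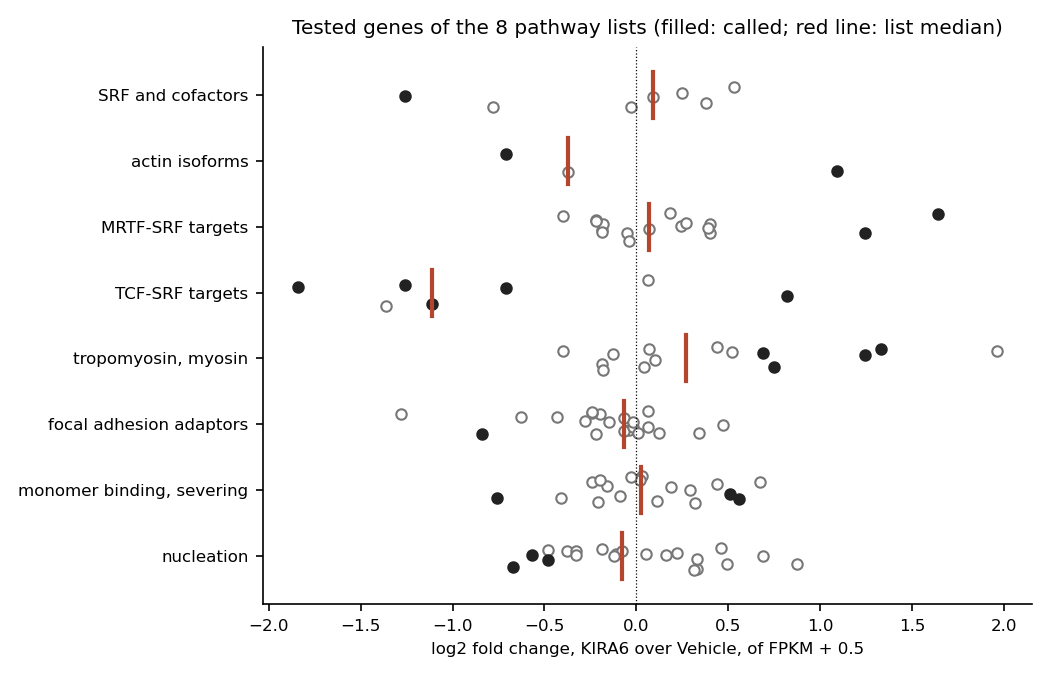
log2 fold changes of KIRA6 over Vehicle on the FPKM + 0.5 scale (horizontal axis) for the tested genes of the 8 pathway lists (a gene can be in more than 1); filled points were called, open points were not, and red lines mark list medians. The list medians lie between −0.37 and 0.27 except for targets of the TCF arm at −1.11, which was −0.71 over the 5 genes that reached the filter in both groups.

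Adaptors of focal adhesions join integrins to actin. Over all tested genes 15.6% were called higher and 7.98% lower, with a median of 0.16. Of 21 tested adaptors 1 fell, with a median of −0.07, and limma called 0 higher, also at an unadjusted p under 0.05. The gene that fell was Vasp, which promotes filament elongation, with 37.21, 38.58 and 36.98 FPKM with KIRA6, against 64.75, 69.53 and 68.96 FPKM with vehicle (log2 fold change −0.84 ± 0.12, adjusted p = 0.003939), and it stayed called with each library left out. The count of lower genes was 2 without KIRA6 replicate 3 or Vehicle replicate 3, fits that called 4.38% and 11.3% of all tested genes lower. This list includes Vcl and Flna. Without KIRA6 replicate 1 and Vehicle replicate 3 together, 11 were called higher and 3 lower, where 35.9% and 20.2% of all tested genes were.

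Genes that nucleate filaments or handle monomers made up the rest of the assembly machinery. Their counts stand beside 15.6% of all tested genes called higher and 7.98% lower, with a median of 0.16. Of 21 tested nucleation genes, with a median of −0.08, 3 fell, namely Cttn (cortactin, which stabilises branches), Arpc2 (a subunit of the ARP2/3 complex) and Fmnl3 (a formin), with log2 fold changes of −0.67, −0.48 and −0.57. Leaving out KIRA6 replicate 1 gave a count of 1, leaving out KIRA6 replicate 2 or 3 or Vehicle replicate 1 or 2 gave 0, and leaving out Vehicle replicate 3 gave 4. In that order, these fits called 6.52%, 3.35% to 4.42%, and 11.3% of all tested genes lower. Of 18 tested genes for monomer binding, capping and severing, with a median of 0.02, Gsn (gelsolin) and Tmsb10 (a thymosin that binds actin monomers) rose, with log2 fold changes of 0.56 and 0.51, and Coro1c (a coronin) fell. Coro1c had 22.70, 21.16 and 23.74 FPKM with KIRA6, against 37.58, 38.23 and 39.65 FPKM with vehicle (log2 fold change −0.76 ± 0.12, adjusted p = 0.00604). Neither increase was called without a filter, with median-ratio scaling, the GC and length correction, or without KIRA6 replicate 1, KIRA6 replicate 2, Vehicle replicate 1 or Vehicle replicate 2, and 1 of them was without KIRA6 replicate 3 or Vehicle replicate 3.

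Because Acta2, Tagln, Myl9 and Tpm2 are strong in contractile cells, markers of other cell types were read in the same libraries. Of 7 further smooth muscle markers, of which Cnn1 and Myocd are also in the pathway lists, Lmod1 and Myocd were listed at 0 in all libraries, and Myh11, Des, Cnn1 and Synpo2 did not exceed 0.11 FPKM in any. The summed level of the 7 was 12.5 to 23.6 FPKM with KIRA6 and 18.1 to 46.5 FPKM with vehicle, nearly all of it Smtn. Of 7 fibroblast markers the sum was 1.91 to 3.80 FPKM with KIRA6 and 0.440 to 0.770 FPKM with vehicle. It was mostly Pdgfra, which rose, while Lum was listed at 0 and Dcn, Col1a1, Col1a2, Pdgfrb and Thy1 did not exceed 0.08 FPKM. Of 6 immune markers the sum was 3.91 to 4.42 FPKM with KIRA6 and 1.86 to 3.06 FPKM with vehicle, mostly Cd68. Cd68 was called higher (log2 fold change 0.66, adjusted p = 0.04725), a call that ended in 5 of the 6 fits with 1 library left out, and Lyz2 had 0.46 to 0.75 FPKM with KIRA6 and 0.08 to 0.37 FPKM with vehicle, while Cd3e was listed at 0 and Ptprc did not exceed 0.01 FPKM. The 4 endothelial markers summed to at most 0.06 FPKM. Of 7 epithelial markers Krt5 was listed at 0, and the others summed to 1612 to 1714 FPKM with KIRA6 and 1357 to 1493 FPKM with vehicle. Of these, Krt14 and Epcam rose, and Krt7, Krt8, Krt18 and Cdh1 were not called. Krt14 had 167.22, 163.63 and 155.33 FPKM with KIRA6, against 23.68, 22.55 and 22.34 FPKM with vehicle (log2 fold change 2.80 ± 0.12, adjusted p = 0.0001425). The log2 fold change of Epcam was 0.74. Myoepithelial cells had no marker list of their own. Whether cells of another type contributed to the values of Acta2, Tagln, Myl9 and Tpm2 was not tested beyond these levels.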

How the data were processed

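Polyadenylated RNA was sequenced from 3 KIRA6 and 3 Vehicle libraries, with strand kept by the dUTP method, per the labels' protocols. Per the submitters' processing notes the build was GRCm39, and the tools were HISAT2 2.2.1 and HTSeq 0.6.1 beside cutadapt 1.9.1 and DESeq2 1.34.0. No setting of theirs is given in the sources used here, strand included, so reads of antisense or near-identical genes cannot be told apart. The authors deposited FPKM with 2 decimals and each gene's exonic length.

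Depth was estimated from the steps between low FPKM of short genes, where all 244 to 326 values checked per library were whole within 0.1 fragment. Log2(FPKM + 0.5) was fitted for KIRA6 against Vehicle with limma 3.58.1 in R 4.3.3 (trend and robust empirical Bayes, two-sided, Benjamini-Hochberg adjustment over the 11778 genes averaging 0.5 FPKM or more). The fit was also tested on simulated data. Ratios used exact permutation tests (scipy 1.17.1), and summed fragments exact binomial intervals at 95%. GC content came from GENCODE M21 by identifier, for 98.9% of tested genes.

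The members, lists and tests were chosen with earlier results of these data known. Named genes were the 10 members, up to 3 called genes of smallest adjusted p per list and direction, a set of genes named whatever their values, and the 3 nearest to Srf. A further gene list is not reported here. Others were named to complete a count or after their values were seen. Alternatives changed the pseudocount, filter, scaling, empirical Bayes settings, weights, block and libraries. The labels do not say what libraries of the same replicate number share.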

Additional observations from a re-analysis of the deposited data

How the results depend on the processing

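Of 2783 genes called among all tested, array weights gave 7553 (64.1%), the fit without KIRA6 replicate 1 and Vehicle replicate 3 gave 6610, and leaving out single libraries gave 1211 to 3392. The share of calls that were higher, 66.2% with 1843 higher and 940 lower, was 44.0% with median-ratio scaling (1224 and 1556), 48.9% with quantile normalization (1132 and 1182), and 48.9% after correcting for GC and length, which called 1712 lower. Members called higher, 2 of 8, numbered 1 with a filter of 2 FPKM, where Myl9 was not tested, 4 without KIRA6 replicate 1 and Vehicle replicate 3, and 1 to 2 with single libraries left out. Members called lower, 1 of 8, numbered 2 with median-ratio scaling, 3 with array weights, 3 with the GC and length correction, 2 without that pair, and 0 to 2 with single libraries left out.

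The sign of Srf turned without that pair (0.26). That of Vcl turned with array weights (0.25) and without that pair (0.62), and ran from −0.55 to 0.23 with single libraries left out. That of Flna turned with quantile normalization (0.02), array weights (0.28) and without that pair (0.61), and ran from −0.35 to 0.33 with single libraries left out. The log2 ratio of Flna to Vcl turned without that pair (−0.04). Where no value is given beside such a change, the cause was not tested. Actb, Actg1, Tpm1, Tpm4 and Myl9 kept their direction in every alternative run.

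With the replicate number as a block (replicate block), 4423 genes (37.6%) were called, and 2 members higher and 2 lower, Actg1 being added (adjusted p = 0.0166). In that fit Srf (−0.78 ± 0.27, adjusted p = 0.07263), Vcl (−0.20 ± 0.16) and Flna (−0.07 ± 0.14) had smaller SEs and were not called. Deviations of same-numbered libraries correlated at 0.762, −0.469 and 0.738 over tested genes. Deviations from a group mean depend on each other, so these values cannot settle whether the numbers pair the libraries. Acta2 and Tagln, below the filter, were tested only with a filter of 0.1 FPKM and with none. At 2 to 29 fragments their depth limits what can be detected.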
